A study of Mus musculus with 6 samples.

Results

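The genes described here are 10 members of the response to oxidative stress, chosen by symbol: Nfe2l2, Keap1, Hmox1, Nqo1, Gclm, Gclc, Txnrd1, Prdx1, Srxn1 and Sod1. Each symbol matched 1 of the 37991 Ensembl genes counted. The cells were natural killer (NK) cells of mouse spleen, labelled CD27+ CD11b+, an intermediate step of NK cell maturation, on a C57BL6 background. RNA was sequenced from 3 Rroid-deficient and 3 wildtype libraries, Rroid being a noncoding RNA transcribed from a regulatory locus near Id2. The labels give no age, treatment or design of the deficient allele, nor whether each library is from its own mouse. The p-values therefore rest on the spread between these 6 samples alone, and that spread may be technical. The comparison asked whether oxidative stress genes go with the higher heat shock gene levels of the deficient libraries.

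NRF2, the protein of Nfe2l2, is a transcription factor that KEAP1 holds in the cytoplasm and passes to a ubiquitin ligase for degradation. When reactive oxygen or electrophiles modify KEAP1, NRF2 escapes, pairs with small MAF proteins and binds antioxidant response elements in its target genes. Those targets make glutathione, recycle thioredoxin and peroxiredoxins, and break down heme and quinones. The heat shock response is a separate pathway, in which HSF1 binds heat shock elements of chaperone genes when proteins misfold.

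Promoter sequences are given for Gclm and Txnrd1, whose libraries did not overlap between genotypes and lay in opposite directions, for Sod1, which held both kinds of element, and for Hspa1a, the heat shock gene of largest fold change. They are the 250 bases before the annotated start in RefSeq's annotation of GRCm38.p6. Capitals mark the core of the antioxidant response element, searched as TGACNNNGC on both strands, or the heat shock element GAANNTTC, which reads the same on both strands. In Sod1 the capitals nearer the 5′ end are the heat shock element and those nearer the start the antioxidant core.
Gclm, chr3:122245307-122245556, plus strand: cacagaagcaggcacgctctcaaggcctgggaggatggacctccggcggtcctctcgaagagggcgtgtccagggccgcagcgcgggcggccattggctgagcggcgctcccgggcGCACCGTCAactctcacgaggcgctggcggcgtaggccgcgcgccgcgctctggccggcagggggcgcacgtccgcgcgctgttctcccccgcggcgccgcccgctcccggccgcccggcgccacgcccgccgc
Txnrd1, chr10:82858956-82859205, plus strand: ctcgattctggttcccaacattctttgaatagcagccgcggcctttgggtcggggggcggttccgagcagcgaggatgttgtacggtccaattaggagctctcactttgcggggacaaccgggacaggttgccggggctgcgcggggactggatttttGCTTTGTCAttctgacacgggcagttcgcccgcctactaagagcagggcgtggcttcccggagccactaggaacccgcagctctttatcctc
Sod1, chr16:90220512-90220761, plus strand: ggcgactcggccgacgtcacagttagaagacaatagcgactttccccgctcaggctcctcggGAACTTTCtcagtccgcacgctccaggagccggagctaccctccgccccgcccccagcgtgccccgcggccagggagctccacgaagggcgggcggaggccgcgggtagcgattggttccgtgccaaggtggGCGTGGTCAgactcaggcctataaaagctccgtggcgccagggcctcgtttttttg
Hspa1a, chr17:34972157-34972406, minus strand: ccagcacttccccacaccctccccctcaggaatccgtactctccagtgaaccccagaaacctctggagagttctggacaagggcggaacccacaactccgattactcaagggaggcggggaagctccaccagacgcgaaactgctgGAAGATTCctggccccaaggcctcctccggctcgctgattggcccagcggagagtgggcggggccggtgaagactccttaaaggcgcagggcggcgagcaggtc
The Txnrd1 stretch is that of the middle one of 3 annotated starts, and the windows of the other starts held no core.

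A window of 250 bases before and 50 after the start was available for 8 of the 10 members. The antioxidant core was present in at least 1 window of 6 of these members, namely Nfe2l2, Gclm, Txnrd1, Prdx1, Srxn1 and Sod1, against 14% of 27025 genes with a window. By window the core was in 6 of 10, against 12.4% of 32851. In Srxn1 it lay after the start. The heat shock element was present in 1 of the 8 members, Sod1, and in 10 of 17 heat shock list genes with a window, against 9.04% of all genes. By window it was in 1 of 10 for the members and 11 of 23 for the heat shock list, against 7.86% of all windows. Of the members whose libraries did not overlap between genotypes, Gclm, Txnrd1 and Srxn1 held the core and Keap1 did not. Of the tested members that did overlap, Nfe2l2, Prdx1 and Sod1 held it too, and Gclc had no window. A match is a description of the letters and not a binding site.

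Levels are in CPM, read counts put on a common scale with TMM factors, listed for deficient libraries 1 to 3 and wildtype libraries 1 to 3. Reads assigned to genes ranged from 5823626 to 9216430 per library. An observed 0 allows up to 3 counts, which were worth 0.322 to 0.489 CPM per library and cover counting error only. Id2, the gene next to the element, fell to 62.3 ± 21.5 CPM in deficient libraries, against 382 ± 73.8 in wildtype (SD, n = 3 each; edgeR adjusted p = 0.0308). The 12 NK cell markers summed to 11161 to 12024 CPM in deficient and 12869 to 15249 in wildtype libraries, with every marker detected. Without Gzma, a granzyme gene, the sums were 9709, 9017 and 8521 CPM in deficient and 9753, 10556 and 8779 in wildtype libraries, which overlapped. Gzma itself lay lower in every deficient library, at 2560 CPM in deficient and 4501 in wildtype libraries on average. It did not pass edgeR's test (adjusted p = 0.543), but DESeq2 called it (adjusted p = 0.00812). Klrb1c (796 CPM in deficient and 1001 in wildtype libraries on average) and Klrd1 (456 and 553) also lay lower in every deficient library. Klrb1c and Klrd1 passed neither edgeR's nor DESeq2's test. The remaining NK cell markers overlapped, and of these Itga2, Il2rb, Tbx21 and Cd27 had higher means in deficient libraries. T cell markers summed to 346 to 451 CPM in deficient and 171 to 266 in wildtype libraries, with Cd6 and Cd8a at 0 throughout. Cd3g had 63.4 CPM in deficient and 6.22 in wildtype libraries on average, Cd3d 49.2 and 6.79, and Trbc2 111 and 51.4. None of these overlapped between genotypes or passed edgeR's test. DESeq2 called Cd3g (adjusted p = 2.65e-09) and Cd3d (0.00053) but not Trbc2 (0.0933). The other T cell markers did not separate the genotypes. Cd4 (8.54 CPM) and Cd8b1 (5.54) were seen in wildtype library 1 alone, Trac and Trbc1 overlapped, and Cd3e and Cd5 were near 0. The part of T cell or other marker genes in the results was not tested. B cell (2.28 to 7.64 and 2.20 to 7.94 CPM), dendritic (2.88 to 19.7 and 10.4 to 28.5), neutrophil (at most 0.277 and 0.599) and platelet markers (at most 1.11 and 0.966) overlapped between deficient and wildtype libraries. Zbtb46 made up nearly all of the dendritic sum, while Flt3, Xcr1 and Clec9a were at 0 in every library. Of the tested genes, 0.392% to 5.57% had no read in deficient libraries and 0.230% to 5.63% in wildtype libraries, the most in library 1 of each genotype. In bulk samples, fewer cells of a type and less RNA per cell cannot be told apart.

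No member passed the test over all genes, edgeR's quasi-likelihood test with a Benjamini-Hochberg adjusted p under 0.05. Of the 10 members, 8 had enough reads to be tested. The test called 2 of 11724 genes, or 0.0171%, Id2 lower and Hspa1a higher. At an unadjusted p under 0.05 it found 1 member, Txnrd1, where 5.29% of all tested genes lay under that value. DESeq2 called none of the 8, against 0.569% of all genes with an adjusted p, and limma-voom none, against 0.00853%. In 4 of the 8 tested members the libraries of the genotypes did not overlap, against 12.4% of all tested genes. Of these, Keap1 and Gclm were higher and Txnrd1 and Srxn1 lower in every deficient library. Without the filter on low counts no member was called either, against 0.495% of 19782 genes.

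**Figure D1:**
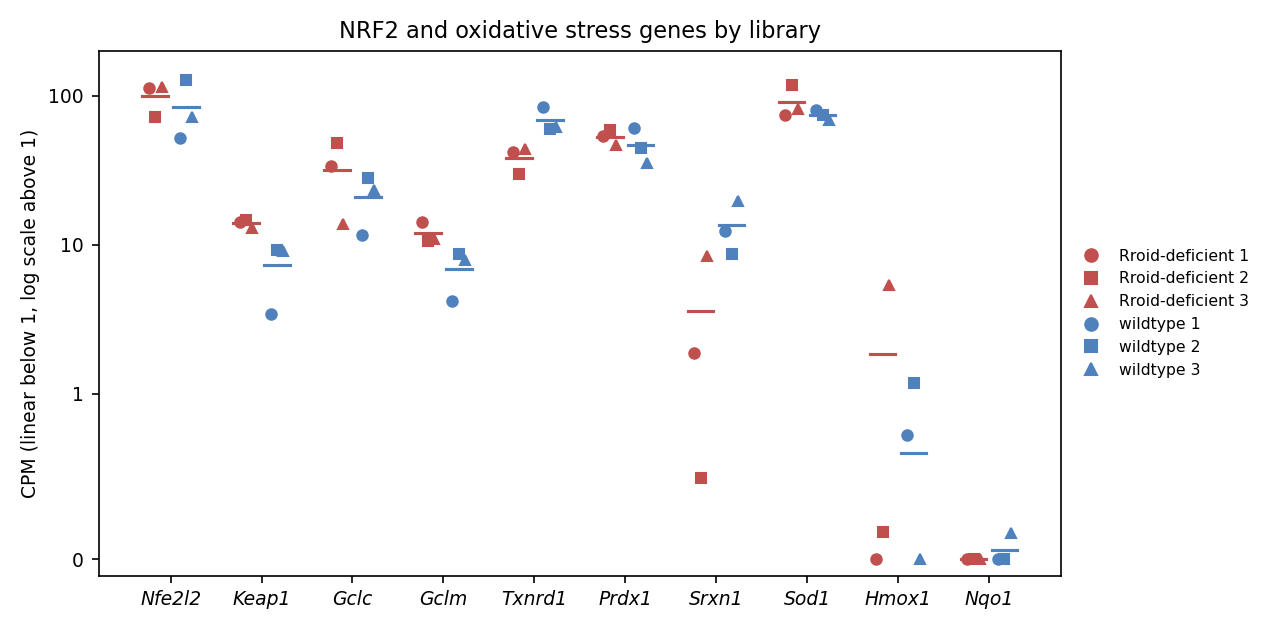
CPM of the 10 members in each library, on an axis that is linear below 1 and logarithmic above; circles, squares and triangles are libraries 1, 2 and 3 of each genotype, and bars are genotype means. The deficient libraries lie above the wildtype ones in Keap1 and Gclm and below them in Txnrd1 and Srxn1.

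The regulators stand at the head of the pathway. Nfe2l2 (ENSMUSG00000015839, chromosome 2) had 113, 72.1 and 115 CPM in deficient libraries, against 51.7, 128 and 71.6 in wildtype libraries. The groups overlapped, with wildtype 2 the highest library and wildtype 1 the lowest. The log2 fold change of 0.26 had an SE of 0.38 (95% interval -0.58 to 1.09, edgeR adjusted p = 0.944). Without wildtype library 1 it was -0.0084. Keap1 (ENSMUSG00000003308, chromosome 9), the inhibitor of NRF2, had 14.3, 14.7 and 12.9 CPM in deficient libraries, against 3.45, 9.23 and 9.12 in wildtype libraries. All deficient libraries lay above all wildtype libraries, and wildtype 1 stood lowest. Its log2 fold change of 0.94 had an SE of 0.74 (95% interval -0.70 to 2.58, edgeR adjusted p = 0.925). In the annotation an antisense gene, not analysed here, overlaps Keap1, and without strand reads from both cannot be told apart.

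The glutathione genes encode the subunits of glutamate-cysteine ligase, the enzyme of the slow step in glutathione synthesis. Gclm (ENSMUSG00000028124, chromosome 3), the modifier subunit, had 14.1, 10.6 and 10.9 CPM in deficient libraries, against 4.19, 8.59 and 7.86 in wildtype libraries. The deficient libraries were all above the wildtype ones, again with wildtype 1 the lowest. Its log2 fold change of 0.79 had an SE of 0.75 (95% interval -0.87 to 2.45, edgeR adjusted p = 0.936). Gclc (ENSMUSG00000032350, chromosome 9), the catalytic subunit, had 33.4, 47.8 and 13.7 CPM in deficient libraries, against 11.5, 28.0 and 23.3 in wildtype libraries. Here deficient library 3 lay below wildtype 2 and 3, and the groups overlapped. The log2 fold change of 0.59 had an SE of 0.60 (95% interval -0.75 to 1.93, edgeR adjusted p = 0.936). Genes that overlap Gclm in the annotation had at most 3 counts in any library.

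The thioredoxin and peroxiredoxin members did not lie in one direction. Txnrd1 (ENSMUSG00000020250, chromosome 10), the cytosolic thioredoxin reductase, had 41.9, 29.7 and 43.6 CPM in deficient libraries, against 83.6, 59.8 and 61.2 in wildtype libraries. Every deficient library lay below every wildtype library. The fold was 0.563, a log2 fold change of -0.83 (SE 0.36, 95% interval -1.63 to -0.030, edgeR adjusted p = 0.914). When any 1 library was left out, the log2 fold change ranged from -0.93 to -0.67. Srxn1 (ENSMUSG00000032802, chromosome 2), sulfiredoxin, which repairs overoxidized peroxiredoxins, had 1.87, 0.489 and 8.44 CPM in deficient libraries, against 12.3, 8.59 and 19.5 in wildtype libraries. Its raw counts were 13, 3 and 61 in deficient and 82, 80 and 124 in wildtype libraries. The groups did not overlap, but deficient 3 lay just under wildtype 2. The log2 fold change of -1.89 had an SE of 1.06 (95% interval -4.25 to 0.47, edgeR adjusted p = 0.925), and between -3.49 and -1.38 with any 1 library left out. The value of -3.49 was that without deficient library 3. Prdx1 (ENSMUSG00000028691, chromosome 4), a cytosolic peroxiredoxin that reduces hydrogen peroxide, had 53.5, 58.4 and 46.6 CPM in deficient libraries, against 60.2, 44.7 and 35.5 in wildtype libraries. Those ranges overlapped, at a log2 fold change of 0.17 (SE 0.37, 95% interval -0.64 to 0.99, edgeR adjusted p = 0.964).

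Sod1 (ENSMUSG00000022982, chromosome 16), the copper and zinc superoxide dismutase, had 74.1, 118 and 80.9 CPM in deficient libraries, against 80.0, 73.8 and 68.4 in wildtype libraries. Deficient library 2 stood highest and the other libraries lay close together. The log2 fold change of 0.29 had an SE of 0.30 (95% interval -0.37 to 0.96, edgeR adjusted p = 0.936), and 0.061 without deficient library 2.

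Hmox1 and Nqo1, which are widely used as readouts of NRF2 activity, were at or near 0 and were not tested. Hmox1 (ENSMUSG00000005413, chromosome 8), the inducible heme oxygenase, had 0, 1 and 39 counts in deficient and 5, 11 and 0 in wildtype libraries. Deficient library 3 alone held 5.39 CPM, and the other libraries at most 1.18. Fitted without the filter on low counts, it had a log2 fold change of 1.48 (edgeR adjusted p = 0.838). In spleen Hmox1 is abundant in macrophages that clear red cells. The 11 macrophage and monocyte markers summed to 24.3 to 30.4 CPM in deficient and 7.86 to 13.1 in wildtype libraries, and Cd68 made up most of this in deficient libraries. Lyz2 had 7.61 CPM in deficient library 3, 1.89 in wildtype 3 and 0 in the others, and the defining markers Cd14, C1qa and Spic were at 0 in every library. The part of these markers in the Hmox1 value was not tested. Nqo1 (ENSMUSG00000003849, chromosome 8), the quinone oxidoreductase, had 0 counts in every deficient library and 0, 0 and 1 in wildtype libraries. Its level was under the limit that a count of 0 allows in each library, so that no difference was detectable at this depth.

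Levels per length put the members in order. Divided by exonic length and averaged over all 6 libraries, Nfe2l2 had 24.2 ± 8.07, Sod1 20.8 ± 4.49 and Prdx1 16.4 ± 3.07 CPM per kilobase (SD, n = 6). Txnrd1 had 7.52 ± 2.68, Gclc 6.98 ± 3.57, Srxn1 3.02 ± 2.47, Keap1 2.26 ± 0.906 and Gclm 1.49 ± 0.533. Hmox1 had 0.713 ± 1.19 and Nqo1 0.017 ± 0.041. Every member overlapped in its range over libraries with the next in this order, although Prdx1 and Txnrd1 did so narrowly, at a lowest value of 11.7 and a highest of 11.8 CPM per kilobase. These SDs and ranges span both genotypes. The order held for wildtype means but not for deficient means. In deficient libraries Srxn1 (1.28 CPM per kilobase) lay below Keap1 (2.97) and Gclm (1.89), and Txnrd1 (5.42) below Gclc (8.40). In wildtype libraries Srxn1 had 4.77, Keap1 1.55, Gclm 1.09, Txnrd1 9.62 and Gclc 5.56.

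The log2 fold change was above 0 in 6 of 8 tested members and 17 of 22 tested heat shock genes, against 51.6% of all tested genes. Of 24 listed heat shock genes, 22 were tested, and in 13 of them every deficient library lay above every wildtype library, while none lay below; the shares over all tested genes were 6.03% and 6.33%. The median log2 fold change was 0.88 over the heat shock list, 0.28 over the 8 tested members and 0.024 over all tested genes. These heat shock genes were known from earlier results on the same libraries, and their values are a description. Hspa1a, an inducible Hsp70 chaperone, rose to 34.0, 38.2 and 37.8 CPM in deficient libraries, against 0.30, 0.43 and 0.157 in wildtype libraries, a log2 fold change of 6.83 with an SE of 0.75 (edgeR adjusted p = 0.0308). Neither Hspa1a nor Id2 passed in any fit that left out 1 library (edgeR adjusted p 0.0589 to 0.316 for each) or with the replicate number as a block (0.309 for each). In limma-voom Hspa1a did not pass (adjusted p = 0.66), while Id2 did (0.0382).

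Other chaperone genes did not pass edgeR's test. Hspa1b, whose reads may not be told apart from those of the near-identical Hspa1a, had 46.7, 28.9 and 42.9 CPM in deficient and 2.55, 1.18 and 0 in wildtype libraries. Hspa8, the constitutive Hsp70, had 293, 342 and 292 CPM in deficient and 120, 140 and 129 in wildtype libraries. The nucleotide exchange factor gene Hsph1 had 238 ± 54.3 CPM in deficient and 88.8 ± 32.3 in wildtype libraries. The co-chaperone genes Dnaja1 (145 ± 10.4 and 59.0 ± 10.7) and Dnajb1 (235 ± 58.1 and 103 ± 24.8) also did not overlap between deficient and wildtype libraries (SD, n = 3 each). DESeq2 called 7 of the 22 tested heat shock genes, where it called 0.569% of all genes with an adjusted p.

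**Figure D2:**
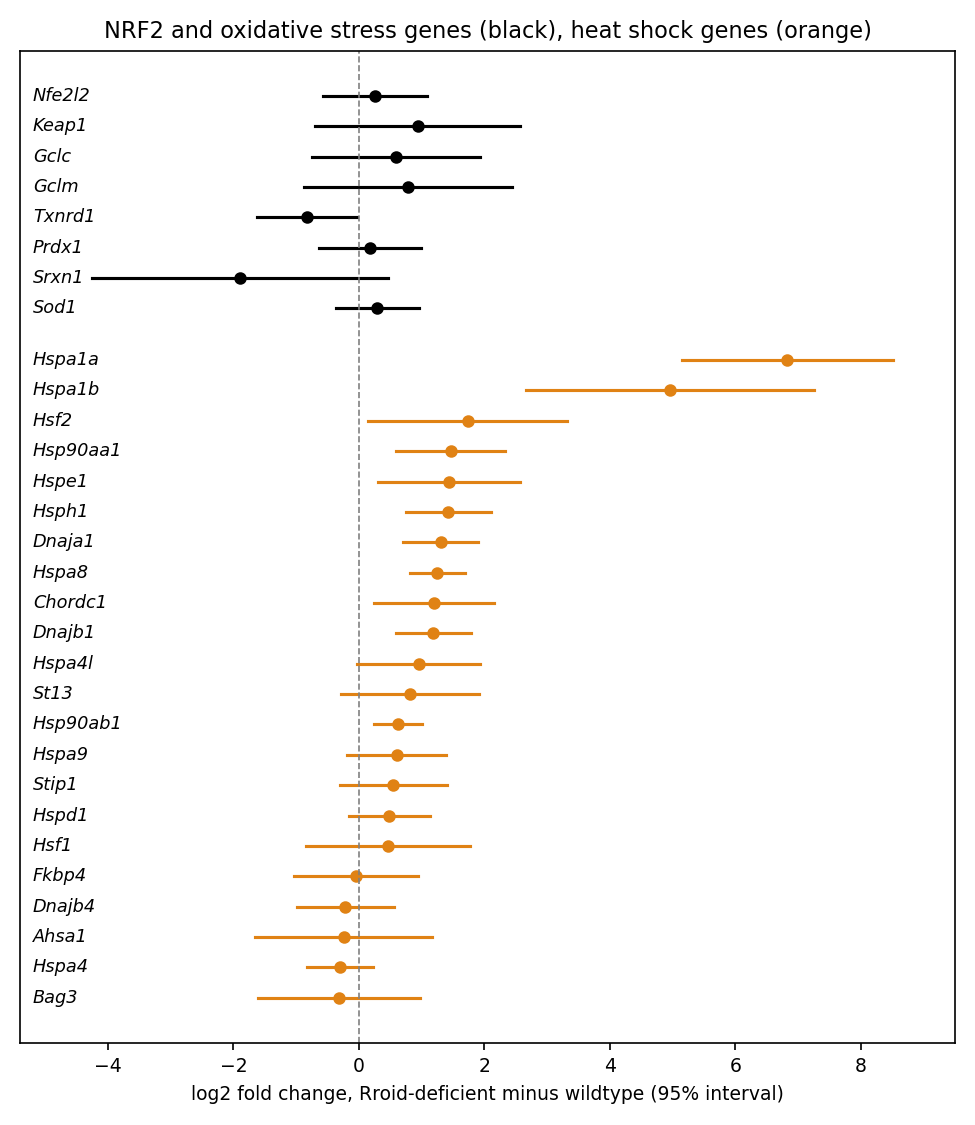
Log2 fold change, deficient minus wildtype, with its 95% interval from edgeR's fit, for the 8 tested members in black and all 22 tested heat shock genes in orange. The interval lies above 0 in 11 heat shock genes and crosses 0 in the other 11, and among the members it lies below 0 in Txnrd1 and crosses 0 in the other 7. Intervals are per gene and not adjusted for the number of genes tested. Of the genes shown, only Hspa1a passed edgeR's test after adjustment.

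Summed levels show the same genes by library. The 24 heat shock genes summed to 3128, 3575 and 3297 CPM in deficient libraries, against 1775, 2125 and 1990 in wildtype libraries, with no overlap. The 10 members summed to 346, 352 and 337 CPM in deficient libraries, against 308, 362 and 297 in wildtype libraries. Wildtype library 2 held the highest sum of the members, so these groups overlapped. No test of the difference between the lists was made.

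A wider list of 65 antioxidant genes without the 10 members was examined in the same fit, and 54 of them were tested. None passed in edgeR, DESeq2 or limma-voom. At an unadjusted p under 0.05 there were 3, Mafg, Txnip and Prdx2, or 5.56% of the list, near the 5.29% of all tested genes. Of the 54, 25 had a positive and 29 a negative log2 fold change, with a median of -0.066. In 3 genes (Nfe2, Txnrd2 and Taldo1) every deficient library lay above every wildtype library, and in 5 (Mafg, Mafk, Sqstm1, Txnip and Prdx2) below. These 8 make up 14.8% of the list, near the 12.4% of all tested genes.

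**Figure D3:**
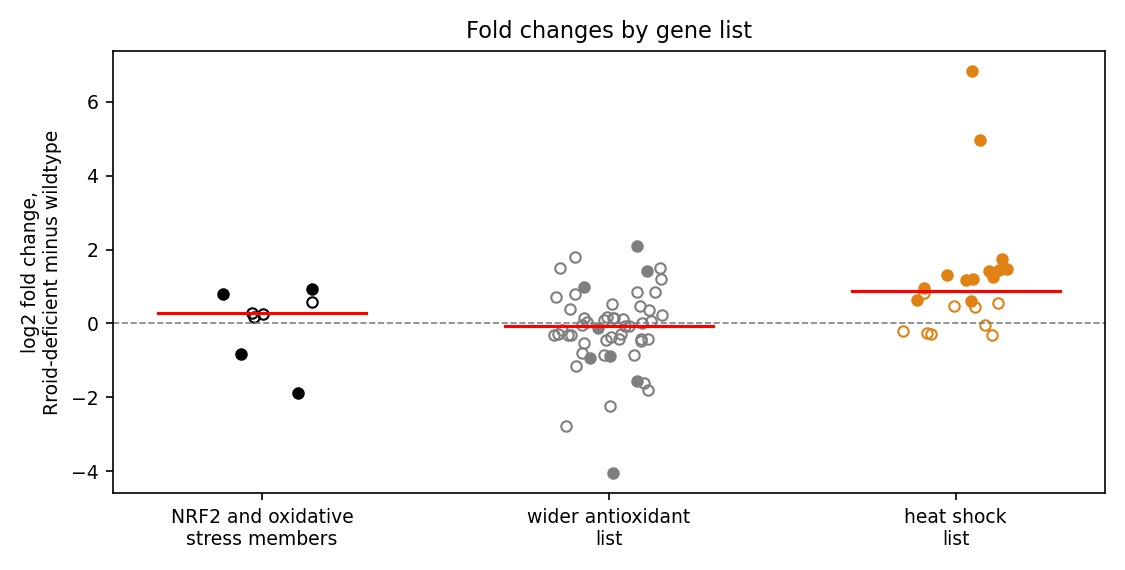
Log2 fold change, deficient minus wildtype, of the tested genes in each list; filled points are genes whose libraries did not overlap between genotypes, open points those that did, red bars are list medians and the dashed line is the median of all tested genes. The heat shock list has its median at 0.88, the members at 0.28 and the wider antioxidant list at -0.066.

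Among other partners and regulators of NRF2, 11 of 12 genes were tested. Mafg, a small MAF partner, had 2, 10 and 2 counts in deficient libraries and 186, 59 and 16 in wildtype libraries, or 0.288, 1.63 and 0.277 against 27.9, 6.34 and 2.52 CPM. Every deficient library lay below every wildtype library, and wildtype 1 held most of the wildtype reads. Its log2 fold change of -4.05 had an SE of 1.31 (edgeR adjusted p = 0.895). It was -2.59 without wildtype library 1 and -5.36 without deficient library 2. Nfe2, a relative of Nfe2l2, had 1.59, 3.26 and 3.32 CPM in deficient and 0, 0.752 and 1.10 in wildtype libraries. Btrc, which encodes a ubiquitin ligase adaptor, had 9.90 ± 6.62 CPM in deficient and 22.0 ± 7.21 in wildtype libraries (SD, n = 3 each).

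The other thioredoxin and peroxiredoxin genes, 12 of 12 tested, also did not lie in one direction, with 4 positive and 8 negative log2 fold changes. Txnip, which binds and inhibits thioredoxin, had 235, 197 and 182 CPM in deficient libraries, against 459, 318 and 346 in wildtype libraries. The groups did not overlap, and the log2 fold change was -0.87 with an SE of 0.21 (edgeR adjusted p = 0.641, DESeq2 adjusted p = 0.0525). Prdx2, a cytosolic peroxiredoxin, had 6.34, 8.97 and 16.3 CPM in deficient libraries, against 38.5, 31.6 and 22.8 in wildtype libraries. These groups did not overlap either, and the log2 fold change was -1.55 with an SE of 0.59 (edgeR adjusted p = 0.914). Prdx2 is abundant in red cells. The 7 erythroid markers summed to 5.48, 1.47 and 7.19 CPM in deficient and 19.8, 8.48 and 10.7 in wildtype libraries, with Klf1 at 0 throughout. Alas2, a heme synthesis gene, had 0.721, 0 and 3.04 CPM in deficient and 15.6, 4.08 and 8.97 in wildtype libraries, without overlap. The other 6, globins among them, summed to 4.76, 1.47 and 4.15 CPM in deficient and 4.19, 4.40 and 1.73 in wildtype libraries, which overlapped. None of the 6 had more than 35 counts in a library, so these sums are imprecise. The part of erythroid RNA in the Prdx2 value was not tested. Msra, a methionine sulfoxide reductase, had 18.3 ± 7.77 CPM in deficient and 5.27 ± 4.49 in wildtype libraries (SD, n = 3 each). Txnip was a large part of the summed level of the 12 genes. The sum was 526, 384 and 422 CPM in deficient and 796, 576 and 583 in wildtype libraries, and without Txnip it was 291, 187 and 240 against 337, 257 and 237.

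**Figure D4:**
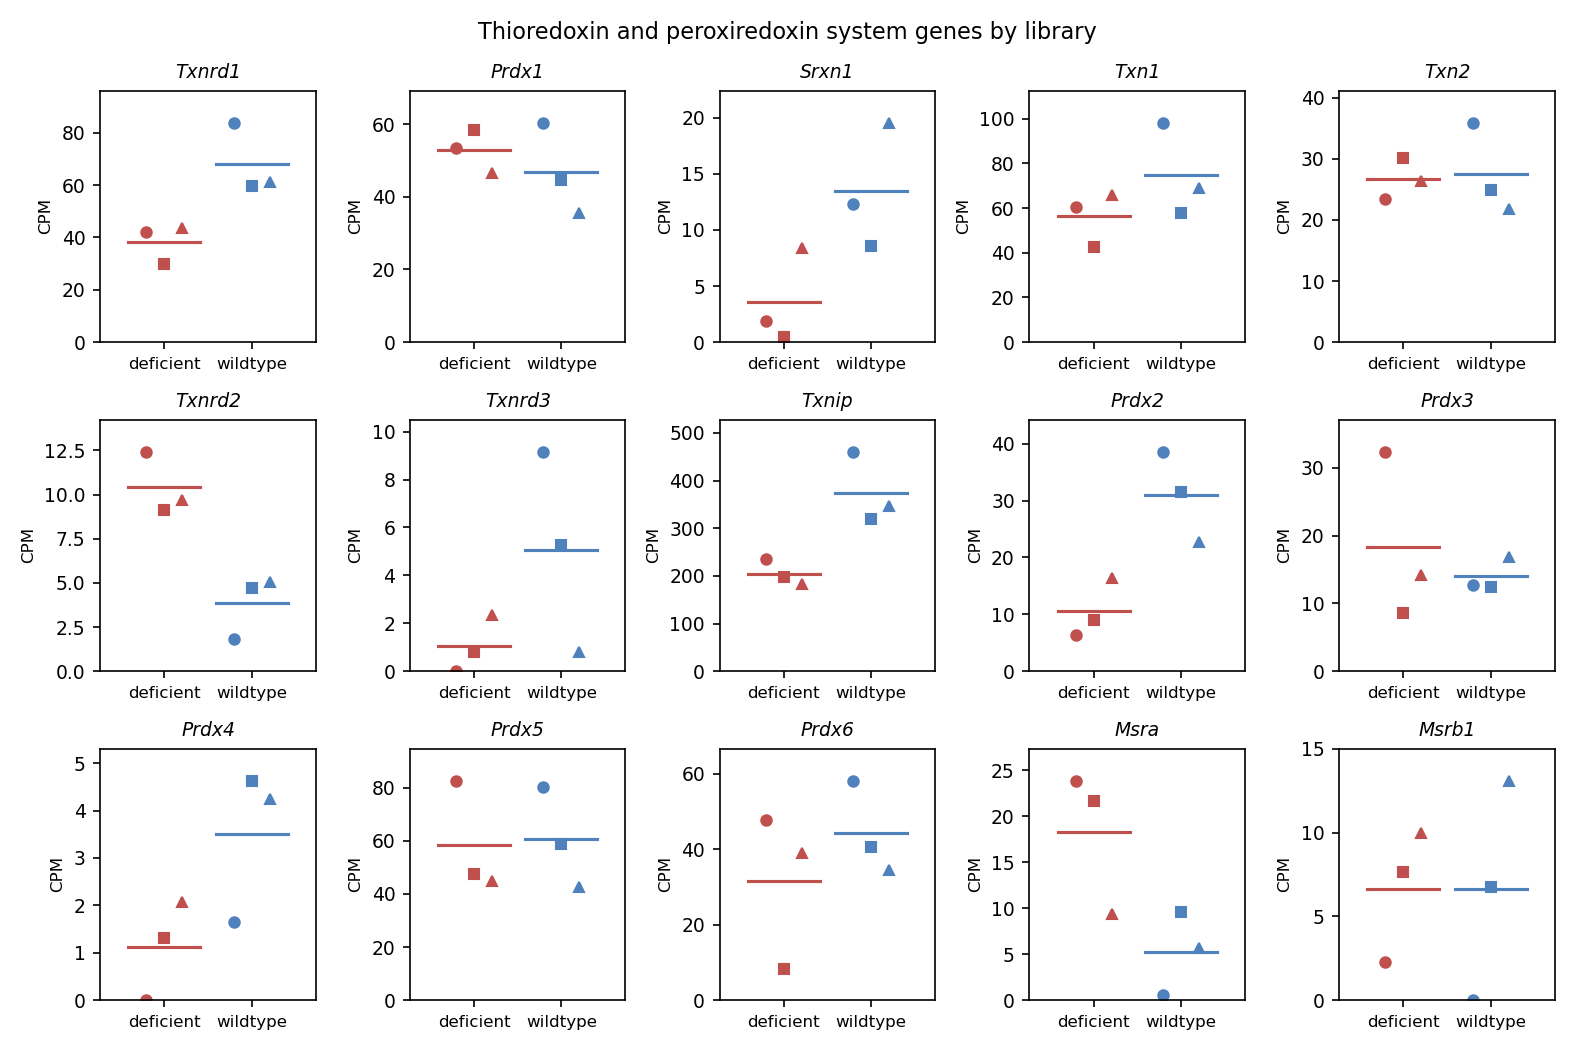
CPM by library for the 3 thioredoxin and peroxiredoxin members (Txnrd1, Prdx1, Srxn1) and the 12 other genes of that role, with deficient libraries left and wildtype right; circles, squares and triangles are libraries 1, 2 and 3, bars are genotype means, and each axis starts at 0. Txnrd1, Srxn1, Txnip and Prdx2 lie lower in every deficient library and Txnrd2 higher.

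In the other roles few genes stood apart. Of 22 further glutathione genes, 17 were tested and all overlapped between the genotypes. Mgst2, a microsomal glutathione transferase, had 22.6 ± 12.7 CPM in deficient and 8.04 ± 3.33 in wildtype libraries, Glrx5, a mitochondrial glutaredoxin, 23.9 ± 5.40 and 13.2 ± 6.0, and Gpx8 0.888 ± 0.792 and 6.15 ± 7.81 (SD, n = 3 each). Wildtype library 1 held 15.1 CPM of Gpx8, and without it the log2 fold change of -2.77 was -0.90. Slc7a11, the cystine transporter gene that is a target of NRF2, had 0 counts in every deficient library and 1, 0 and 0 in wildtype libraries. Of 9 heme and quinone genes 6 were tested, and all overlapped. Nqo2, a relative of Nqo1, had 114, 55.1 and 68.6 CPM in deficient libraries, against 40.6, 33.4 and 58.4 in wildtype (log2 fold change 0.85, SE 0.39, edgeR adjusted p = 0.914). Cbr1, a carbonyl reductase, had 16.7 ± 9.65 and 5.86 ± 2.01 CPM, and the ferritin heavy chain gene Fth1 298 ± 23.8 and 263 ± 17.6, in deficient and wildtype libraries.

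Among superoxide and peroxide enzymes, Sod2, the mitochondrial dismutase, had 51.6 ± 27.2 CPM in deficient and 29.8 ± 12.7 in wildtype libraries, and Ccs, the copper chaperone of SOD1, 3.31 ± 1.65 and 11.5 ± 8.24. Cat, catalase, had 107 ± 1.43 CPM in deficient and 121 ± 34.8 in wildtype libraries. Of 6 genes that supply NADPH, 5 were tested, and Taldo1, transaldolase, had 27.8, 31.6 and 23.8 CPM in deficient libraries, against 3.74, 16.9 and 21.6 in wildtype libraries. All deficient libraries of Taldo1 lay above the wildtype ones (log2 fold change 0.98, SE 0.67, edgeR adjusted p = 0.925). Tkt, transketolase, had 36.6 ± 9.88 and 49.8 ± 7.35 CPM, and G6pdx, the enzyme gene at the entry to the pentose phosphate pathway, 52.0 ± 20.9 and 40.0 ± 3.69, in deficient and wildtype libraries (SD, n = 3 each). The NRF2 target Me1 had 0 counts in all 6 libraries.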

How the data were processed

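Per the labels' protocols, RNA from TRIzol and column extraction was amplified with a Nugen Ovation kit, and single reads were sequenced. The submitters' processing notes name Trimmomatic 0.33, TopHat2 2.1.0 and HTSeq 0.6.1, along with DESeq2, and NCBIM37 and mm9 as builds. The strand setting of the counting was not given in the sources used here. Values are raw counts per Ensembl gene, as the authors deposited them. The 5 rows that name no gene, with 80.0% to 84.4% of all counts in each library, were left out. Of uniquely aligned reads, 72.8% to 79.1% per library were assigned to no gene feature. A GRCm38 annotation gave symbols to 32919 genes and exonic lengths.

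Genotypes were compared with edgeR 4.0.16 in R 4.3.3, using filterByExpr, TMM, a quasi-likelihood fit and Benjamini-Hochberg adjustment over 11724 genes, with SE from the F statistic. Every pair of libraries differed beyond sampling noise. The fit was checked on simulated counts, where most 2-fold changes, and among low genes most 4-fold and 8-fold ones, were missed. Other settings tried were RLE factors, DESeq2 1.42.0, limma-voom (limma 3.58.1), no filter, a stricter filter, left-out libraries, library sizes without the 100 most abundant genes, and the replicate number as a block.

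Members, lists and tests were chosen with earlier results of these data known. Named were all members, Id2, up to 3 genes of smallest p per antioxidant role, and the 6 heat shock genes of smallest p. Txnrd2, Mafk, Sqstm1, Slc7a11, Me1, Cd68, Lyz2, Gzma, Cd3d, Cd3g, Trbc2 and Alas2 were named after their values were seen. So were the markers Klrb1c, Klrd1, Itga2, Il2rb, Tbx21, Cd27, Cd3e, Cd4, Cd5, Cd8b1, Trac, Trbc1 and Zbtb46. Figures were drawn with matplotlib 3.10.9.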

Additional observations from a re-analysis of the deposited data

How the results depend on the processing

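No member was called under any of the 14 alternatives tried, and in the 11 that give a value the number without overlap between genotypes was 4 to 6. It was 4 or 5 with 1 library left out, where 19.8% to 26.4% of all tested genes did not overlap, and 6 without wildtype 1 and deficient 1, where 37.6% did not. The members' median log2 fold change ranged from 0.13 to 0.49. The heat shock median stayed between 0.64 and 1.06. That of the wider antioxidant list was -0.29 without a filter on low counts, -0.22 without wildtype library 3, and 0.019 and 0.025 without wildtype libraries 1 and 2; the cause was not tested. The count of genes called over all genes was 65 with DESeq2, 98 without a filter and 1 with limma-voom. It was 0 without wildtype 1 and deficient 1, and 0 to 0 with each library left out in turn. Same-numbered libraries did not deviate together (correlations 0.014, -0.017 and 0.040), and not every library correlated best with its own number. With 3 noisy libraries per genotype, such correlations cannot settle whether the numbers pair libraries, which the labels do not say. Library 1 of each genotype held the most tested genes without a read. With the replicate number as a block 0 genes were called. With 1 library left out, the log2 fold change ranged from -0.0084 (without wildtype 1) to 0.70 for Nfe2l2, from -0.0063 (without deficient 2) to 0.56 for G6pdx and from -0.39 to 0.031 (without wildtype 2) for Cat. Nfe2l2 had -0.098 without wildtype 1 and deficient 1. The other 7 tested members, and the other antioxidant genes named for their p, kept their direction and stayed uncalled. Some came near 0, with Prdx1 at 0.0055 without wildtype library 3 and Sod2 at 0.021 without wildtype 1 and deficient 1. Precision limits the members, and the intervals of the low genes Keap1, Gclm and Srxn1 allow changes of several fold.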
